A study of Homo sapiens with 27 samples.

Results

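The genes described here encode 7 matrix metalloproteinases (MMP1, MMP7, MMP9, MMP10, MMP12, MMP14 and MMP19), and 3 tissue inhibitors of metalloproteinases (TIMP1, TIMP2 and TIMP3). They were chosen by symbol, matched through the Ensembl IDs of the deposited count tables, and make up 10 of the 20453 genes listed. Human THP-1 cells, one monocytic leukaemia line, had first received PMA, a phorbol ester that makes them macrophage-like, at 10 ng/ml for 24 h, in every group. After a change of medium they were given 100 ng/ml of lipopolysaccharide (LPS) together with 1 µM of the glucocorticoid dexamethasone (LPS+Dex), 100 ng/ml of LPS alone, or an ethanol and PBS vehicle, for 3 h. No group had dexamethasone without LPS. Poly(A) mRNA was sequenced in 4 libraries per group and ribosome footprints, the mRNA fragments that ribosomes cover, in 5 libraries per group.

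MMPs are zinc-dependent proteases that cut collagens, elastin, proteoglycans and other proteins outside the cell, and most are secreted as inactive precursors. TIMPs bind the active site of these proteases and block it. In macrophages, inflammatory signals are known to induce several MMPs through AP-1 and NF-kB, and glucocorticoids are known to hold down many of the same genes.

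MMP7, MMP10, MMP1 and MMP12 lie in one cluster of MMP genes on chromosome 11 and share the direction of change with LPS, but MMP7 went the other way from the rest when dexamethasone was added. Promoter windows were found in the RefSeq table (GRCh38.p14) for 5 of the 10 genes: MMP7, MMP10, MMP14, TIMP1 and TIMP3. The letters TGANTCA, the AP-1 motif, which reads the same on both strands, occurred at -67 from the RefSeq start in both MMP7 and MMP10. The printed stretches are the 150 bases before the start of MMP7 (chr11:102530748-102530897, minus strand) and of MMP10 (chr11:102780629-102780778, minus strand), shown because these genes of one cluster, with other MMP genes between them, moved in opposite directions with dexamethasone. Capitals mark the AP-1 letters.
MMP7: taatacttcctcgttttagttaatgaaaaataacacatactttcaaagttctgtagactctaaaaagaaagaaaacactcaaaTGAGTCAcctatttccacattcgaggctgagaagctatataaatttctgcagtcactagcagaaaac
MMP10: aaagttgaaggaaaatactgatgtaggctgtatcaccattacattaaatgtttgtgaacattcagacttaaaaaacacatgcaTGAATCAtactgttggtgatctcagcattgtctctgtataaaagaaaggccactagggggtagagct
Each also held TATAAA on the sense strand, at -30 in MMP7 and at -31 in MMP10. MMP7 alone of these 5 held AGAACA, a glucocorticoid receptor half-site, at 22 bases after the start, and none of the 5 held the NF-kB consensus on either strand. Of 35116 RefSeq promoter windows of the same 300 bases, 7.71% held TGANTCA, 7.33% TATAAA, 14.8% AGAACA and 11.3% the NF-kB consensus. None of these letters occurred in the windows of MMP14, TIMP1 and TIMP3. A match is a description of the letters and not a binding site.

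Library totals ran from 19.0 to 30.7 M counts for mRNA and from 11.5 to 26.1 M for footprints. All 8 monocyte and macrophage markers checked (CD14, CD68 and others) exceeded 1 CPM (counts per 1 M counts) in all groups. Their summed mRNA level was 2869 to 2942 CPM with LPS+Dex, 2807 to 3049 CPM with LPS and 3931 to 4376 CPM with vehicle, and 6 of the 8 fell with LPS. The summed epithelial and lymphocyte markers stayed at or below 1.36 CPM. Of 6 fibroblast markers 2, COL1A1 and PDGFRA, exceeded 1 CPM, and the summed mRNA level of the list was 34.5 to 42.0 CPM with LPS+Dex, 14.3 to 16.1 CPM with LPS and 7.43 to 10.4 CPM with vehicle. Of 3 endothelial markers 1 exceeded 1 CPM, and the list summed to 8.88 to 9.58 CPM with LPS+Dex, 6.79 to 7.96 CPM with LPS and 11.7 to 13.9 CPM with vehicle. The part of these lists in the results was not tested. The 3 footprint libraries numbered 4 stood apart from the others, and footprint results are therefore given with and without them. Levels below are CPM scaled by the trimmed mean of M values (TMM) within each assay, and a change is a log2 fold change with its standard error (SE) from edgeR's quasi-likelihood test, called at an adjusted p under 0.05 over all genes. Transcript lengths were not used, so levels are compared between treatments and not between genes.

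The mRNA of all 10 genes passed the test with LPS against vehicle: 8 were higher and 2, MMP19 and TIMP2, were lower. In that comparison 62.2% of the 13327 genes tested passed, 28.6% higher and 33.6% lower. The median change was 0.54 over the 10 genes and -0.05 over all genes. Dexamethasone added to LPS moved 8 of the 10, 3 higher (MMP7, MMP19 and TIMP2) and 5 lower (MMP1, MMP9, MMP10, MMP12 and TIMP3), against 30.9% of all genes, 15.5% higher and 15.4% lower. Between LPS+Dex and vehicle 6 passed, 5 higher and 1 lower, against 60.2% of all genes, 29.2% higher and 31% lower. Without any overlap between the libraries compared were 7, 9 and 6 of the 10 genes in these 3 comparisons, against 52.8%, 34.1% and 52.4% of all genes. These measurements come from whole cultures, in which fewer cells making a transcript and less of it per cell cannot be told apart. Scaling by library totals alone moved the median of all genes with LPS against vehicle to -0.32, so that changes are relative to the average gene. It left 7 genes called with LPS (5 higher and 2 lower), where 8884 of 13327 genes passed. With LPS+Dex against vehicle it gave 4 higher and 2 lower, where 8335 passed.

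**Figure D1:**
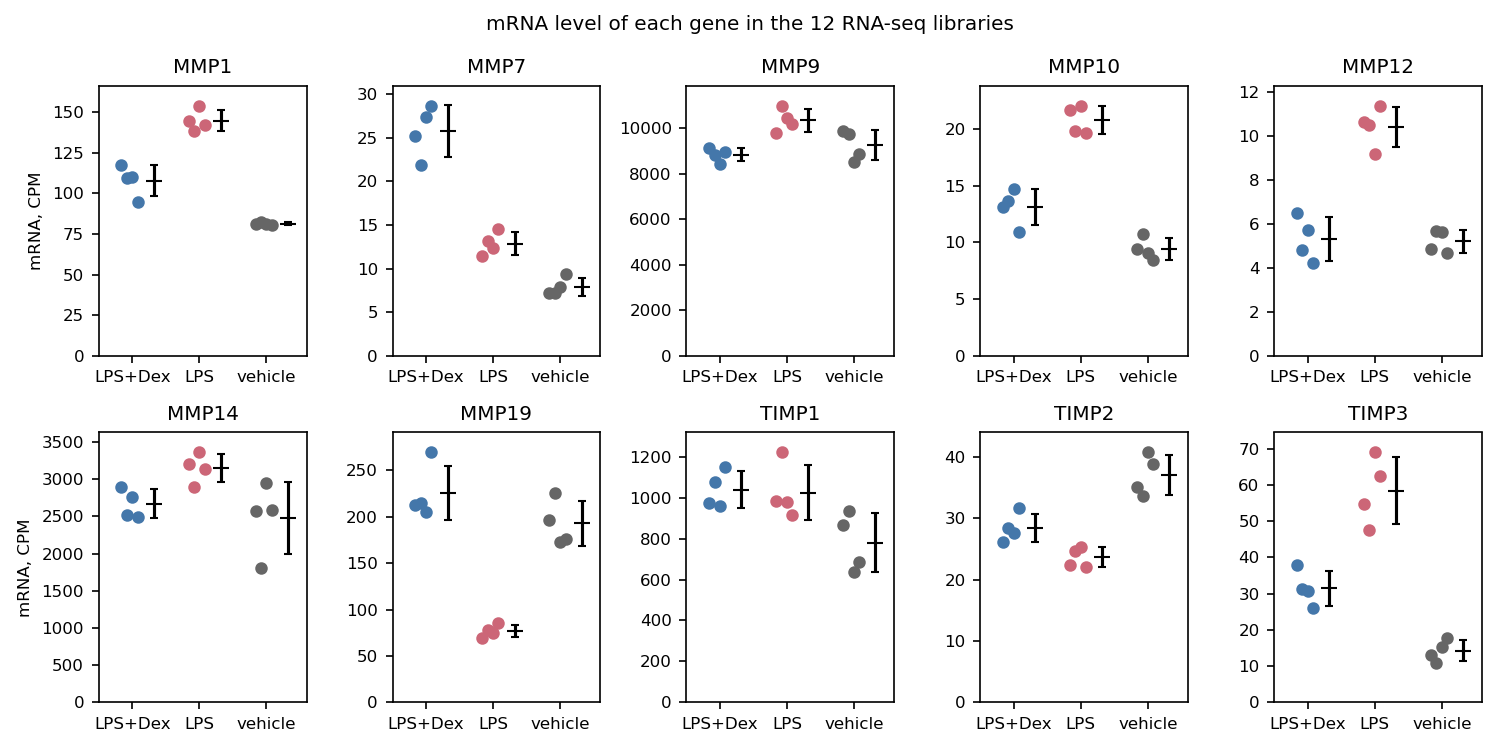
mRNA level (CPM, linear axis from 0) of each gene in the 12 RNA-seq libraries, 1 point per library, with the mean and SD beside each group of 4. MMP19 lies at 69.3 to 85.4 CPM in the LPS libraries, under all libraries of the other groups, while MMP7 is highest with LPS+Dex.

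Among the secreted proteases, MMP1, the interstitial collagenase that opens fibrillar collagen, had 118, 110, 110 and 94.5 CPM with LPS+Dex, 145, 139, 154 and 142 CPM with LPS, and 80.9, 82.7, 81.1 and 80.7 CPM with vehicle. The 3 groups did not overlap, and LPS+Dex lay between the other groups. MMP1 mRNA rose by 0.83 ± 0.07 with LPS (adjusted p = 1.5e-07) and fell by 0.42 ± 0.07 when dexamethasone was added (adjusted p = 0.00029). It remained 0.41 ± 0.07 above vehicle in LPS+Dex (adjusted p = 0.00017).

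MMP10, stromelysin 2, which cuts proteoglycans and activates other MMP precursors, had 13.1, 13.6, 14.7 and 10.9 CPM with LPS+Dex, 21.6, 19.8, 22.0 and 19.6 CPM with LPS, and 9.44, 10.7, 9.05 and 8.44 CPM with vehicle. Again the groups were separate and LPS+Dex was intermediate. The changes were 1.14 ± 0.11 with LPS (adjusted p = 5.5e-07), -0.67 ± 0.11 with LPS+Dex against LPS (adjusted p = 0.00026) and 0.48 ± 0.11 with LPS+Dex against vehicle (adjusted p = 0.0018).

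MMP12, the macrophage metalloelastase, was the least counted of the 10 genes in mRNA, with 78 to 263 counts per library. Its levels were 6.51, 4.84, 5.74 and 4.23 CPM with LPS+Dex, 10.6, 10.5, 9.21 and 11.4 CPM with LPS, and 4.87, 5.69, 5.64 and 4.67 CPM with vehicle. The LPS libraries stood above all others, and those of LPS+Dex and vehicle overlapped. MMP12 rose by 1.00 ± 0.13 with LPS (adjusted p = 1.8e-05) and fell by 0.97 ± 0.14 with LPS+Dex against LPS (adjusted p = 8.3e-05), and LPS+Dex against vehicle gave 0.03 ± 0.14 (adjusted p = 0.86).

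MMP7, matrilysin, a small protease that lacks the hemopexin domain of most MMPs, had 25.2, 21.9, 27.4 and 28.7 CPM with LPS+Dex, 11.4, 13.1, 12.3 and 14.6 CPM with LPS, and 7.26, 7.22, 7.86 and 9.40 CPM with vehicle. Each group lay apart, in rising order from vehicle through LPS to LPS+Dex. MMP7 rose by 0.69 ± 0.12 with LPS (adjusted p = 0.00019) and by a further 1.01 ± 0.12 with LPS+Dex against LPS (adjusted p = 1.5e-05). Between LPS+Dex and vehicle it differed by 1.70 ± 0.12 (adjusted p = 3.3e-08), a fold of 3.25.

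MMP9, gelatinase B, which degrades denatured collagen and basement membrane collagen, was the most counted gene in each LPS+Dex and vehicle library of both assays. In the LPS libraries IL1B was counted more often in both assays, and CXCL8 also in 3 footprint libraries. MMP9 took 0.824% to 0.874% of the mRNA counts with LPS+Dex, 0.917% to 1.02% with LPS and 0.961% to 1.09% with vehicle.

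The TMM-scaled level of MMP9 mRNA was 9128, 8843, 8452 and 8958 CPM with LPS+Dex, 9804, 10980, 10440 and 10170 CPM with LPS, and 9897, 9755, 8519 and 8867 CPM with vehicle. The LPS libraries overlapped those of vehicle and stood above those of LPS+Dex. The change of MMP9 was 0.16 ± 0.07 with LPS (adjusted p = 0.048) and turned to -0.11 when libraries were scaled by their totals. That call was lost when any 1 of 9 libraries was left out (vehicle 3 or 4, LPS 2, 3 or 4, or any LPS+Dex library; adjusted p from 0.057 to 0.13). MMP9 fell by 0.22 ± 0.07 with LPS+Dex against LPS (adjusted p = 0.019), a call lost without LPS library 2 (adjusted p = 0.052) or LPS+Dex library 3 (adjusted p = 0.059). LPS+Dex against vehicle gave -0.06 ± 0.07 (adjusted p = 0.42). Scaled by library totals that change was -0.28 and passed (adjusted p = 0.00097).

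MMP14, the membrane-type protease also called MT1-MMP, which activates the MMP2 precursor at the cell surface, had 2894, 2515, 2763 and 2497 CPM with LPS+Dex, 3197, 2901, 3358 and 3135 CPM with LPS, and 2578, 1801, 2951 and 2587 CPM with vehicle. Vehicle library 2 was the lowest of the 12, and the vehicle and LPS libraries overlapped. MMP14 rose by 0.34 ± 0.12 with LPS (adjusted p = 0.021), and scaling by library totals (0.07) or leaving out LPS library 3 (adjusted p = 0.054) ended the call. LPS+Dex against LPS gave -0.24 ± 0.12 (adjusted p = 0.146), which passed without vehicle library 2 (adjusted p = 0.020).

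MMP19, a secreted protease that cuts basement membrane proteins and is known from macrophages, moved against most of the others. Its mRNA had 213, 215, 206 and 269 CPM with LPS+Dex, 69.3, 77.6, 74.9 and 85.4 CPM with LPS, and 197, 226, 173 and 176 CPM with vehicle. The LPS libraries lay far below all others, and LPS+Dex library 4 was the highest. MMP19 fell by 1.33 ± 0.11 with LPS (adjusted p = 1.3e-07) and rose by 1.56 ± 0.11 with LPS+Dex against LPS (adjusted p = 1e-07), a fold of 2.94. LPS+Dex against vehicle gave 0.23 ± 0.11 (adjusted p = 0.077), which passed without vehicle library 2 (0.31, adjusted p = 0.016).

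Of the inhibitors, TIMP3, which is bound to the extracellular matrix and also blocks ADAM17, had 37.8, 31.2, 30.8 and 25.9 CPM with LPS+Dex, 54.7, 47.6, 68.9 and 62.5 CPM with LPS, and 13.1, 10.98, 15.4 and 17.7 CPM with vehicle. All 3 groups were separate, with LPS+Dex in between. Its rise of 2.03 ± 0.16 with LPS (adjusted p = 7.9e-08), a fold of 4.08, was the largest change of the 10 genes. TIMP3 fell by 0.89 ± 0.15 with LPS+Dex against LPS (adjusted p = 0.00045) and remained 1.14 ± 0.16 above vehicle (adjusted p = 2.8e-05).

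TIMP1, a secreted inhibitor of most MMPs and a known partner of the MMP9 precursor, had 975, 1075, 958 and 1147 CPM with LPS+Dex, 983, 1220, 981 and 914 CPM with LPS, and 864, 935, 638 and 685 CPM with vehicle. LPS+Dex and LPS libraries overlapped throughout. All vehicle libraries lay below those of LPS+Dex, and they overlapped those of LPS. The change was 0.39 ± 0.12 with LPS (adjusted p = 0.014), 0.02 ± 0.12 with LPS+Dex against LPS (adjusted p = 0.91) and 0.41 ± 0.12 with LPS+Dex against vehicle (adjusted p = 0.011). Scaling by library totals ended both calls against vehicle (0.12 with LPS and 0.20 with LPS+Dex).

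TIMP2, which also takes part in the activation of the MMP2 precursor by MMP14, had 26.2, 28.5, 27.7 and 31.6 CPM with LPS+Dex, 22.4, 24.7, 25.4 and 22.2 CPM with LPS, and 35.2, 33.6, 40.8 and 38.8 CPM with vehicle. The groups did not overlap, and the LPS libraries were lowest. TIMP2 fell by 0.65 ± 0.09 with LPS (adjusted p = 2.5e-05) and rose by 0.27 ± 0.09 with LPS+Dex against LPS (adjusted p = 0.037). The rise with LPS+Dex was lost when LPS library 1 or 4 or LPS+Dex library 2, 3 or 4 was left out (adjusted p from 0.060 to 0.12), or with other size factors (adjusted p = 0.053).

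Within each library, MMP9 was counted 7.81 to 9.37 times per TIMP1 mRNA count with LPS+Dex, 9.00 to 11.1 times with LPS and 10.4 to 13.4 times with vehicle. This ratio needs no scaling between libraries, and it was lower in each LPS+Dex library than in any vehicle library. In footprints the ratio was 10.0 to 12.5 with LPS+Dex, 8.46 to 14.1 with LPS and 11.2 to 14.5 with vehicle, and libraries of these groups overlapped. Without libraries 4 it was 10.9 to 12.5 with LPS+Dex, 11.5 to 14.1 with LPS and 13.5 to 14.5 with vehicle, so LPS+Dex again lay under vehicle. Within libraries 4 it was 10.0, 8.46 and 11.2 in the same order of groups. It was not tested, and it depends on transcript lengths, so that only its differences between treatments can be read.

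In the ribosome footprints, the TMM-scaled level of the library numbered 4 was above the other 4 libraries of its group for all 10 genes with LPS+Dex, for all 10 with LPS and for 8 with vehicle. Its TMM factor was lower, which raises scaled levels: 0.6263 with LPS+Dex (others 1.022 to 1.071), 0.6277 with LPS (0.9557 to 0.9764) and 0.9439 with vehicle (1.248 to 1.284). By share of counts not all genes stood highest there. With LPS+Dex library 4 was lowest for MMP1 (0.01773%) and MMP12 (0.000912%), and with LPS it lay within the others for MMP1 (0.0273%). With vehicle it was lowest for MMP1 (0.01616%), MMP10 (0.001162%) and MMP12 (0.0006559%). The TMM-scaled level of library 4 was 13.4 to 17.7 times the mean of the others for MMP7, 6.0 to 8.02 times for MMP19, 2.13 to 3.28 times for MMP9 and 1.11 to 1.56 times for MMP1. The mRNA libraries of that number showed ratios from 0.742 to 1.34. In these footprint libraries the summed macrophage markers reached 11590 CPM with LPS+Dex, 10270 CPM with LPS and 10850 CPM with vehicle, against 4226 to 4458, 4019 to 4553 and 5291 to 5985 CPM in the others. What sets them apart was not tested.

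With all 15 libraries, 4 of the 10 genes passed in footprints with LPS against vehicle (MMP1, MMP10, MMP12 and TIMP3, all higher), against 52.6% of the 12197 genes tested, 25.4% higher. Library totals in place of TMM gave 4 higher and 1 lower, where 6420 of all genes passed. For LPS+Dex against LPS, MMP1 and MMP12 passed, both lower, against 17.1% of genes, 7.99% lower. For LPS+Dex against vehicle, MMP1, MMP10 and TIMP3 passed, all higher, against 46.4% of genes, 24.4% higher. Library totals left 1 higher (TIMP3) and 1 lower (TIMP2) there, with MMP1 at 0.19 (adjusted p = 0.21) and MMP10 at 0.40 (adjusted p = 0.089). Of all genes 4832 passed in that setting. The count of 2 with LPS+Dex against LPS became 1 without LPS library 2 or 3 or without LPS+Dex library 1, 2, 3 or 5, and 4 without LPS+Dex library 4. Libraries did not overlap for 4, 1 and 2 of the 10 genes in these comparisons, against 38.2%, 13.8% and 32.4% of all genes.

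Without the libraries numbered 4, 9 genes passed in footprints with LPS against vehicle, 8 higher and TIMP2 lower, against 67.5% of 12233 genes, 31.5% higher and 36% lower. Between LPS+Dex and LPS 7 passed, against 31.5% of genes, 16.2% higher and 15.3% lower: MMP7 and MMP19 were higher and MMP1, MMP9, MMP10, MMP12 and TIMP3 were lower. Between LPS+Dex and vehicle 9 passed, all but MMP9 and with only TIMP2 lower, against 62.4% of genes, 30.8% higher and 31.6% lower. With the replicate number as a block in the fit of all 15 libraries, 8 (7 higher and 1 lower), 6 (2 higher and 4 lower) and 9 genes (8 higher and 1 lower) passed in these comparisons, against 67.1%, 30.9% and 61.1% of genes.

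**Figure D2:**
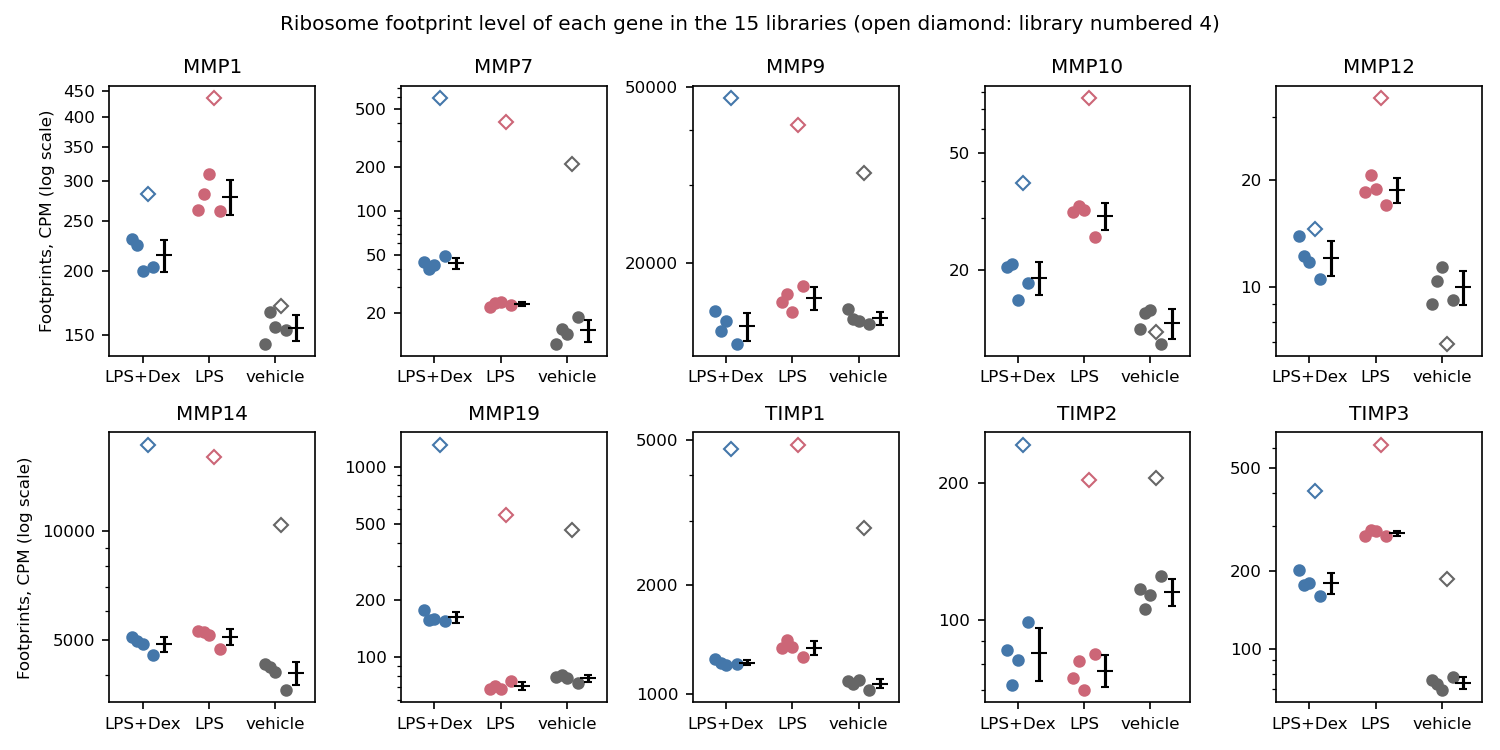
Footprint level (CPM, log axis) of each gene in the 15 ribosome profiling libraries; open diamonds are the libraries numbered 4, and the black mark is the mean and SD of the other 4 libraries of a group. For MMP7, MMP9, MMP14, MMP19 and TIMP1 the diamonds lie far above the filled points in every group, and among the filled points MMP19 is high with LPS+Dex only.

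MMP7 footprints in libraries 1, 2, 3 and 5 were 44.5, 40.2, 42.4 and 49.4 CPM with LPS+Dex, 22.0, 23.5, 23.8 and 22.9 CPM with LPS, and 12.4, 15.5, 14.4 and 18.8 CPM with vehicle. In libraries 4 they were 592 CPM with LPS+Dex, 408 CPM with LPS and 210 CPM with vehicle. Both sets of libraries had the same order of treatments as the mRNA. Without libraries 4, MMP7 footprints rose by 0.59 ± 0.10 with LPS (adjusted p = 2.9e-05) and by 0.95 ± 0.10 with LPS+Dex against LPS (adjusted p = 5.9e-08). With all libraries the changes were 0.90 ± 1.18 (adjusted p = 0.55) and 0.62 ± 1.17 (adjusted p = 0.82), and with the block 0.69 ± 0.09 (adjusted p = 4.0e-06) and 0.84 ± 0.09 (adjusted p = 1.1e-06).

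TIMP3 footprints in libraries 1, 2, 3 and 5 were 202, 177, 179 and 160 CPM with LPS+Dex, 274, 287, 285 and 274 CPM with LPS, and 75.9, 72.7, 69.0 and 77.6 CPM with vehicle, and in libraries 4 they were 410, 618 and 186 CPM in the same order of groups. Both sets had LPS highest and vehicle lowest. TIMP3 footprints rose by 1.86 ± 0.36 with LPS in all libraries (adjusted p = 0.00052) and by 1.92 ± 0.07 without libraries 4 (adjusted p = 5.6e-17), and by 1.89 ± 0.07 with the block (adjusted p = 3.2e-13). Between LPS+Dex and LPS the TIMP3 change was -0.62 ± 0.35 (adjusted p = 0.28), and it was -0.64 ± 0.06 without libraries 4 (adjusted p = 3.2e-08) and -0.63 ± 0.06 with the block (adjusted p = 6.4e-07).

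MMP1, MMP10 and MMP12 footprints followed the direction of their mRNA in both comparisons. With LPS against vehicle they rose by 0.98 ± 0.14, 1.62 ± 0.30 and 1.21 ± 0.19 in all libraries (adjusted p = 4.0e-05, 0.00035 and 6.5e-05) and by 0.85, 1.21 and 0.90 without libraries 4. Set against LPS, LPS+Dex gave changes in all libraries of -0.44 ± 0.14 for MMP1 (adjusted p = 0.043), -0.79 ± 0.30 for MMP10 (adjusted p = 0.084) and -0.79 ± 0.19 for MMP12 (adjusted p = 0.0074). Without libraries 4 all 3 passed, at -0.37 ± 0.07, -0.68 ± 0.10 and -0.62 ± 0.11. All 3 also passed with the block, at -0.43 ± 0.08 (adjusted p = 0.00048), -0.75 ± 0.16 (adjusted p = 0.0018) and -0.76 ± 0.16 (adjusted p = 0.0013). The call of MMP1 in all libraries was lost when LPS library 2, 3 or 4 or LPS+Dex library 1, 2, 3 or 5 was left out (adjusted p from 0.053 to 0.094).

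MMP9 footprints in libraries 1, 2, 3 and 5 were 15570, 14020, 14830 and 13160 CPM with LPS+Dex, 16310, 17070, 15520 and 17790 CPM with LPS, and 15750, 14960, 14790 and 14550 CPM with vehicle. Libraries 4 held 47160 CPM with LPS+Dex, 41060 CPM with LPS and 31970 CPM with vehicle, and the share of all footprint counts that MMP9 took was 1.41% to 2.95%, 1.48% to 2.58% and 1.87% to 3.02% in these groups. By TMM-scaled level LPS+Dex was the highest of libraries 4, whereas by share of counts vehicle was, at 2.95% with LPS+Dex, 2.58% with LPS and 3.02% with vehicle. Without libraries 4 the changes were 0.15 ± 0.05 with LPS (adjusted p = 0.020) and -0.21 ± 0.05 with LPS+Dex against LPS (adjusted p = 0.0051). Neither passed with the block (0.19, adjusted p = 0.060, and -0.12, adjusted p = 0.32) or with all libraries (0.23 and -0.04).

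MMP14 and TIMP1 footprints were higher with LPS than with vehicle when libraries 4 were left out, by 0.33 ± 0.06 (adjusted p = 2.9e-05) and 0.32 ± 0.05 (adjusted p = 6.4e-06). Neither passed with all libraries and no block (0.46 ± 0.48 and 0.52 ± 0.51), and both passed with the block, at 0.40 ± 0.07 for MMP14 (adjusted p = 8.5e-05) and 0.41 ± 0.08 for TIMP1 (adjusted p = 0.00015). LPS+Dex against LPS without libraries 4 gave -0.06 ± 0.06 for MMP14 (adjusted p = 0.46) and -0.13 ± 0.05 for TIMP1 (adjusted p = 0.058). TIMP2 footprints fell by 0.58 ± 0.08 with LPS without libraries 4 (adjusted p = 2.7e-06) and by 0.47 ± 0.10 with the block (adjusted p = 0.00053), and all libraries without the block gave -0.37 ± 0.37 (adjusted p = 0.43). Within libraries 4 TIMP2 had 203 CPM with LPS and 205 CPM with vehicle after TMM scaling, and shares of counts of 0.0127% with LPS and 0.0194% with vehicle.

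**Figure D3:**
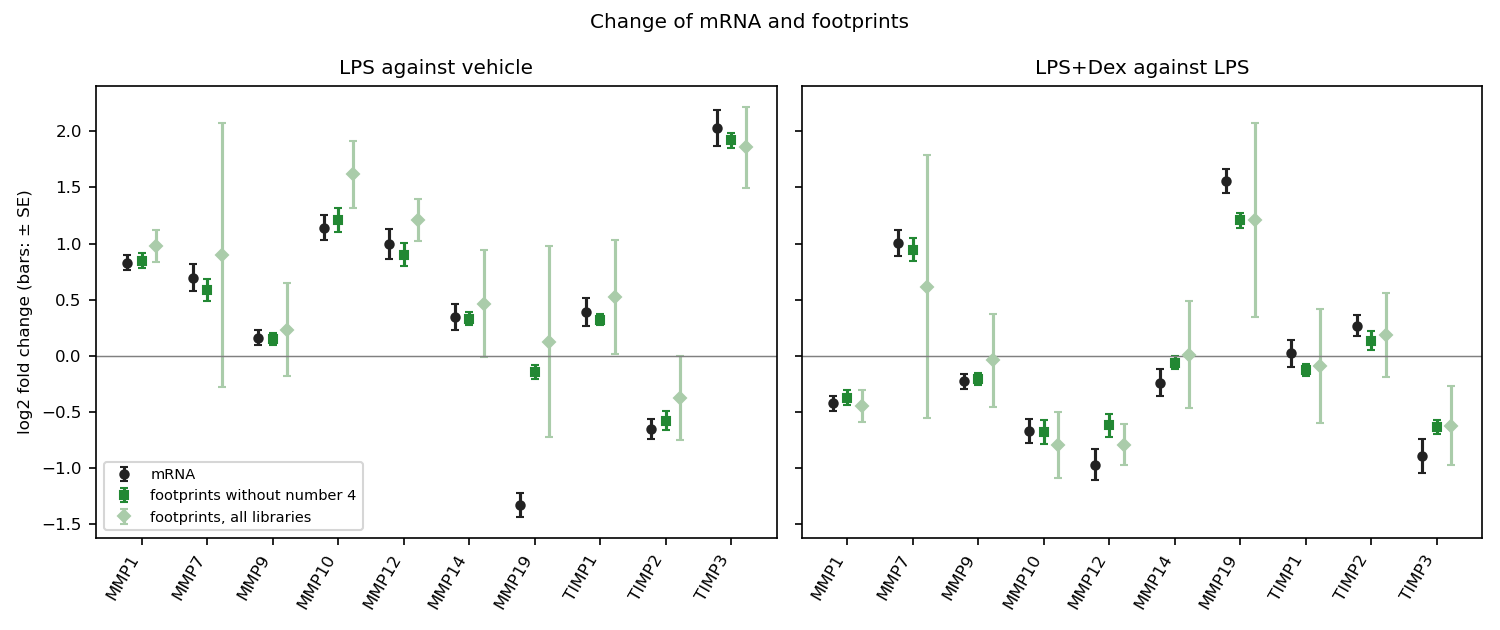
log2 fold change of each gene (points, with SE bars) in mRNA and in footprints with and without the libraries numbered 4, for LPS against vehicle and LPS+Dex against LPS. The values lie close to each other for most genes; for MMP19 with LPS the mRNA value is -1.33 and the footprint values lie near 0.

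MMP19 footprints with LPS lay near those with vehicle after TMM scaling, unlike its mRNA. In libraries 1, 2, 3 and 5 they were 178, 157, 159 and 156 CPM with LPS+Dex, 68.2, 70.5, 68.7 and 75.4 CPM with LPS, and 78.7, 80.8, 77.6 and 73.8 CPM with vehicle. Libraries 4 held 1303 CPM with LPS+Dex, 559 CPM with LPS and 466 CPM with vehicle. Among libraries 1, 2, 3 and 5 the LPS and vehicle values overlapped after TMM scaling, and LPS+Dex was the highest in both sets. By share of counts these LPS libraries (0.00656% to 0.00736%) all lay below those of vehicle (0.00948% to 0.0102%). In libraries 4 MMP19 was higher with LPS than with vehicle after TMM scaling but lower by share of counts, at 0.0351% with LPS and 0.044% with vehicle.

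The MMP19 footprint change with LPS was 0.13 ± 0.85 in all libraries (adjusted p = 0.92), -0.14 ± 0.06 without libraries 4 (adjusted p = 0.053) and -0.05 ± 0.08 with the block (adjusted p = 0.55). MMP19 footprints with LPS+Dex against LPS changed by 1.21 ± 0.86 in all libraries (adjusted p = 0.42), and they rose by 1.21 ± 0.06 without libraries 4 (adjusted p = 4.8e-13) and by 1.20 ± 0.08 with the block (adjusted p = 3.1e-09). Against vehicle, LPS+Dex raised them by 1.07 ± 0.06 without libraries 4 (adjusted p = 1.1e-12), where the mRNA gave 0.23.

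Translational efficiency, the footprint change minus the mRNA change in 1 fit of all 27 libraries, passed for 0 of the 10 genes in either comparison, against 1.51% of 13679 genes with LPS against vehicle and 0.0366% with LPS+Dex against LPS. At an unadjusted p under 0.05 the count by edgeR was also 0. DESeq2 called 0 as well, but at least for MMP7 it gave no adjusted p in either comparison. A gene without an adjusted p counts there as not called. Without footprint libraries 4, MMP19 alone passed with LPS against vehicle, at 1.25 ± 0.13 (adjusted p = 6.6e-07), against 4.94% of genes. With the block MMP19 was again the one called, at 1.31 ± 0.12 (adjusted p = 3.3e-07), against 6.58% of genes. In all libraries its value was 1.46 ± 0.96 (adjusted p = 0.64).

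Expressed as footprint CPM per mRNA CPM without footprint libraries 4, MMP19 stood at 0.720 with LPS+Dex, 0.920 with LPS and 0.403 with vehicle. Within libraries 4 alone the same ratio was 4.84 with LPS+Dex, 6.55 with LPS and 2.64 with vehicle, so that LPS was highest and vehicle lowest in both sets. In edgeR's test of LPS+Dex against LPS, 0 of the 10 genes passed in TE without libraries 4, against 0.374% of genes, and 0 with the block, against 0.519%. At an unadjusted p under 0.05 there was 1, MMP19, in each of these fits. The share of all genes at that unadjusted threshold was not computed, so this count has no background. The TE change of MMP19 with LPS+Dex against LPS was -0.36 ± 0.13 without libraries 4 (adjusted p = 0.35) and -0.35 ± 0.12 with the block (adjusted p = 0.20). For the other 9 genes the TE change with LPS without libraries 4 lay between -0.04 and 0.13. In the RefSeq annotation the pseudogene TMEM198B overlaps MMP19, the pseudogene WTAPP1 overlaps MMP1, and long noncoding RNAs overlap MMP9, MMP12, TIMP2 and TIMP3. These were not analysed here, and the sources used do not say whether the counting used strand.

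**Figure D4:**
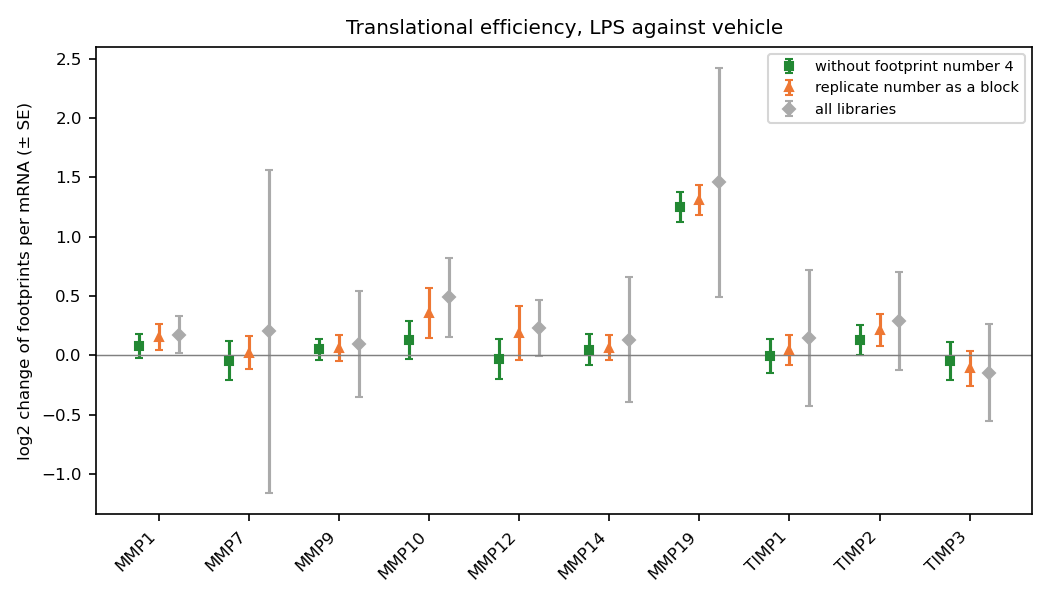
Change of footprints per mRNA (log2, with SE bars) with LPS against vehicle for each gene, without footprint libraries 4, with the replicate number as a block, and with all libraries. MMP19 lies at 1.25 and 1.31 with the short bars of the first 2 fits, and at 1.46 with a wide bar in the last.

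Position grouped some of these genes. MMP7 (chr11:102520508-102530747), MMP10 (chr11:102770502-102780628), MMP1 (chr11:102789919-102798160) and MMP12 (chr11:102862736-102874982) lie within 354 kb in GRCh38.p14, in a cluster of 9 MMP genes. Of these 9, 6 had enough mRNA to be tested, and all 6 rose with LPS, where 28.6% of all genes were higher: beside the 4, MMP8 (neutrophil collagenase) by 0.74 ± 0.19 (adjusted p = 0.0045) and MMP3 (stromelysin 1) by 2.68 ± 0.22 (adjusted p = 1.5e-07). With library totals MMP8 no longer passed. When dexamethasone was added to LPS, the neighbours MMP10, MMP1, MMP3 (-1.97 ± 0.22, adjusted p = 8.2e-06) and MMP12 fell, MMP7 at one end rose, and MMP8 gave -0.09 ± 0.19 (adjusted p = 0.76). MMP20, MMP27 and MMP13 reached at most 6, 6 and 11 mRNA counts in any library.

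**Figure D5:**
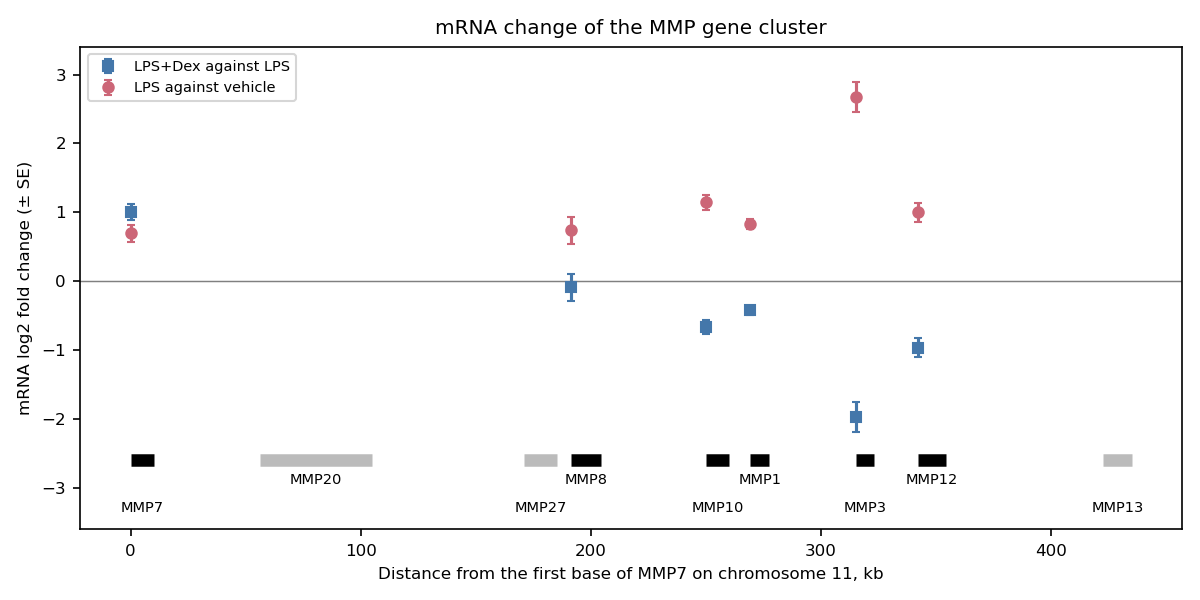
mRNA log2 fold change (SE bars) of the 6 tested genes of the chromosome 11 cluster by distance from the first base of MMP7 (kb), for LPS+Dex against LPS (squares) and LPS against vehicle (circles); bars below show the genes, grey where not tested. All circles lie above 0, and the squares lie above 0 for MMP7 only.

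The other members lie elsewhere: MMP9 at chr20:46008908-46016561, MMP14 at chr14:22836585-22847758, MMP19 at chr12:55835433-55842936, TIMP1 at chrX:47582436-47586789, TIMP2 at chr17:78852977-78925387 and TIMP3 at chr22:32801705-32863041. Each of the 3 TIMP genes overlaps another counted gene. These were SYN1 at TIMP1, CEP295NL at TIMP2 and SYN3 at TIMP3, with at most 33, 60 and 12 mRNA counts in a library.

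The counts of the following lists are to be read against 62.2% of all genes called in mRNA with LPS against vehicle (28.6% higher and 33.6% lower), 30.9% with LPS+Dex against LPS (15.5% higher and 15.4% lower) and 60.2% with LPS+Dex against vehicle (29.2% higher and 31% lower). With library totals 8884 of 13327 genes were called with LPS against vehicle and 8335 with LPS+Dex against vehicle. The medians of all genes there were -0.32 and -0.25, so more genes appear to fall. Of 16 further MMP genes 8 had enough mRNA to be tested. With LPS 2 rose and 5 fell. The largest rise was that of MMP3 and the largest fall that of MMP17, a membrane-anchored protease (-1.55 ± 0.11, adjusted p = 2.0e-08), which had 39.2 ± 3.56 CPM with LPS+Dex, 26.1 ± 2.31 CPM with LPS and 76.3 ± 9.56 CPM with vehicle (SD, n = 4 each). MMP3 was low, at 1.27 ± 0.0683 CPM with LPS+Dex, 5.02 ± 1.17 CPM with LPS and 0.768 ± 0.255 CPM with vehicle. Dexamethasone added to LPS raised 2 and lowered MMP3. The larger of those rises, that of the membrane-type MMP15 (0.87 ± 0.27, adjusted p = 0.025), was lost without LPS library 1 or 3 or LPS+Dex library 2 or 3 (adjusted p from 0.059 to 0.078).

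Of 9 tested genes for other inhibitors, activators and docking proteins of MMPs, 2 rose and 5 fell with LPS. CD44, a hyaluronan receptor that holds MMP9 at the cell surface, rose by 3.62 ± 0.10 (adjusted p = 1.9e-12) and had 842 ± 51.1 CPM with LPS+Dex, 1963 ± 190 CPM with LPS and 159 ± 19.5 CPM with vehicle (SD, n = 4 each). THBS2, a thrombospondin that clears MMP2, fell by 2.06 ± 0.18 (adjusted p = 3.2e-07). Of the same 9, 3 rose and 2 fell with LPS+Dex against LPS. THBS1, another thrombospondin, rose by 3.10 ± 0.23 (adjusted p = 1.9e-07), with 321 ± 59.4 CPM with LPS+Dex and 37.4 ± 10.2 CPM with LPS, and TFPI2, a serine protease inhibitor, fell by 1.97 ± 0.08 (adjusted p = 1.1e-09).

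Of 22 tested ADAM and ADAMTS proteases, 4 rose and 11 fell with LPS, and 5 rose and 7 fell with LPS+Dex against LPS. ADAM12 rose by 1.30 ± 0.32 with LPS and fell by 1.59 ± 0.35 with LPS+Dex against LPS (adjusted p = 0.0026 and 0.0033). ADAMTS14 fell by 2.25 ± 0.32 with LPS (adjusted p = 3.4e-05) and rose by 1.29 ± 0.36 with LPS+Dex against LPS (adjusted p = 0.015), a call lost without LPS+Dex library 2 (0.96, adjusted p = 0.065). Both had under 2 CPM on average in every group. ADAM17, the protease that sheds TNF and that TIMP3 blocks, was 1.17 ± 0.11 higher with LPS+Dex than with vehicle (adjusted p = 4.2e-07).

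Of 11 other matrix-degrading enzymes and their inhibitors, 1 rose and 1 fell with LPS: the lysosomal cathepsins CTSS (0.45 ± 0.13, adjusted p = 0.0081) and CTSK (-0.53 ± 0.15, adjusted p = 0.0064). Library totals gave 0 higher and 5 lower, with CTSS at 0.17 (adjusted p = 0.27). In the comparison of LPS+Dex with LPS 3 passed, all higher, against 5 (4 higher and 1 lower) with the replicate block and 1 without RNA libraries 4, and also 1 without LPS library 1 or 3 or LPS+Dex library 4. PRTN3, a granule serine protease, had the largest of these rises (0.60 ± 0.20, adjusted p = 0.035), and that call was lost without LPS library 1, 3 or 4 or LPS+Dex library 2, 3 or 4 (adjusted p from 0.062 to 0.11).

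Of 17 tested matrix proteins, 7 rose and 3 fell with LPS (4 and 6 with library totals), and 5 rose and 3 fell with LPS+Dex against LPS. TNC, tenascin C, rose by 3.28 ± 0.26 with LPS (adjusted p = 1.1e-07) and fell by 1.99 ± 0.24 with LPS+Dex against LPS (adjusted p = 2.1e-05), at 0.693 ± 0.265 CPM with LPS+Dex, 2.75 ± 0.422 CPM with LPS and 0.279 ± 0.0686 CPM with vehicle (SD, n = 4 each). The proteoglycan VCAN fell by 0.97 ± 0.15 with LPS (adjusted p = 8.6e-05). LAMB1, a laminin chain of basement membranes, rose by 1.86 ± 0.10 with LPS+Dex against LPS (adjusted p = 1.1e-08) and had 229 ± 8.21 CPM with LPS+Dex, 63.2 ± 6.01 CPM with LPS and 14.5 ± 2.28 CPM with vehicle.

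Set against vehicle, LPS+Dex gave in the same lists 2 risen and 4 fallen genes (other MMPs), 3 and 2 (inhibitors, activators and docking proteins), 3 and 13 (ADAM and ADAMTS proteases), 2 and 0 (other enzymes and inhibitors) and 5 and 4 (matrix proteins). With library totals these were 0 and 5, 3 and 5, 1 and 15, 0 and 1, and 4 and 6. The 2 other enzymes became 5 with the block or without vehicle library 2, and 1 without RNA libraries 4 or without vehicle library 3 or 4 or LPS+Dex library 2, 3 or 4. LAMB1 rose by 3.99 ± 0.11 (adjusted p = 3.1e-12) and CD44 by 2.404 ± 0.10 (adjusted p = 8e-11). THBS2 fell by 2.09 ± 0.19, ADAMTS15 by 1.79 ± 0.21, MMP17 by 0.96 ± 0.10 and AGRN, a basement membrane proteoglycan, by 0.72 ± 0.07 (each adjusted p at most 5.3e-06). MMP3 gave 0.70 ± 0.26 (adjusted p = 0.029), lost without vehicle library 1 or 2 or LPS+Dex library 1, 2 or 4 (adjusted p from 0.051 to 0.072). PRTN3 gave 0.51 ± 0.20 (adjusted p = 0.039), lost without vehicle library 3 or 4 or LPS+Dex library 2, 3 or 4 (adjusted p from 0.067 to 0.12).

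The genes nearest to the members were sought among 8454 genes that averaged 5 CPM or more in each assay, by the root mean square difference of 4 changes (LPS against vehicle and LPS+Dex against LPS, in mRNA and in footprints of all libraries). Nearest to MMP19 was CD163, the macrophage scavenger receptor for haemoglobin, at 0.309 log2 units, with mRNA changes of -1.06 with LPS and 1.37 with LPS+Dex against LPS, and footprint changes of -0.39 and 1.09. Nearest to MMP7 was CSF1 at 0.0731, nearest to MMP12 was ERO1B at 0.0707, nearest to MMP1 was GTF2B at 0.0484 and nearest to TIMP3 was CLIC4 at 0.0588. The remaining members had their nearest gene at 0.0170 to 0.134, so MMP19 had the most distant neighbour of the 10. The distances of all 10 members lie under the SE of the footprint changes they use. With LPS against vehicle and LPS+Dex against LPS those SE were 0.85 and 0.86 for MMP19 and 1.18 and 1.17 for MMP7. They were smallest for MMP1, at 0.143 and 0.142. The ranking of distances was not tested.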

How the data were processed

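The deposited tables hold raw counts per gene for 12 RNA-seq and 15 ribosome profiling libraries. Per the submitters' processing notes the authors used STAR 2.7.10a, featureCounts 2.0.1, DESeq2 1.26.0 and, for footprints, Bowtie2 2.4.5; no source used here gives the annotation, the counted feature or the strand setting. The test was edgeR 4.0.16 under R 4.3.3 (filterByExpr with a minimum count of 10 and a minimum total of 15, TMM scaling, quasi-likelihood F test, Benjamini-Hochberg over all genes), with treatment as the only term, and all 10 genes passed the filter in each fit. The SE is the change divided by the root of F. Genes, lists and settings were chosen with earlier results of these data known. Named are the members and, for each list and mRNA comparison, the called genes with the largest rise and fall. TE used an interaction term. Comparisons share libraries.

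The labels do not say that replicates were separate cultures, so p-values measure the spread between these samples, which may be technical. After group means were removed, footprint libraries of equal number correlated over 0.1 in 15 of 15 pairs (lowest 0.182), against 34 of 60 pairs of unequal number, and without libraries 4 in 3 of 12 pairs, against 2 of 36. Block values therefore stand beside footprint and TE results where they change a call or a count. Alternatives were DESeq2 1.42.0, other scalings, no count filter, the block, leaving out libraries 4 and leaving out each library in turn. The counts of list genes under each alternative were added after seeing the data. The steps were tested on simulated counts with the same spread for every gene and no outlying library. That test therefore does not cover the footprint libraries numbered 4.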

Additional observations from a re-analysis of the deposited data

Results flagged for a closer look

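Of 60 groups of libraries checked (10 genes, 2 assays and 3 treatments), 26 held a library far from the others of its group by TMM-scaled level. Chance gives about 1 in 20 of independent groups, but these were not independent. In 25 of the 26 it was a footprint library numbered 4, seen again across genes that share its TMM factor. For MMP7 these libraries held 592.1 CPM with LPS+Dex, 407.8 CPM with LPS and 209.5 CPM with vehicle, and for MMP19 they held 1303, 558.8 and 466.1 CPM with LPS+Dex, LPS and vehicle. MMP9 reached 47160 CPM with LPS+Dex, 41060 CPM with LPS and 31970 CPM with vehicle, and MMP14 reached 17310, 16060 and 10380 CPM in these groups.

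The inhibitors behaved alike, with TIMP1 at 4713 CPM with LPS+Dex, 4852 CPM with LPS and 2864 CPM with vehicle, TIMP2 at 243.2, 202.9 and 205.2 CPM, and TIMP3 at 410.2, 617.5 and 185.8 CPM in the same groups. For MMP10 the library stood apart with LPS+Dex (39.4 CPM) and LPS (76.4 CPM), and for MMP1 (434.9 CPM) and MMP12 (33.94 CPM) with LPS. The only such mRNA library was LPS+Dex number 4 for MMP19, at 269.3 CPM.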

How the results depend on the processing

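The mRNA counts of called genes were 7 to 10 with LPS against vehicle, 6 to 9 with LPS+Dex against LPS and 5 to 7 with LPS+Dex against vehicle over all settings. The replicate block gave 10, 9 and 6. Over the same settings the calls among all genes ran from 7266 to 8884, from 2829 to 4858 and from 6773 to 8592. The 7 with LPS came with library totals, where calls among all genes were most, at 8884. The block added MMP14 (-0.24, adjusted p = 0.049) with LPS+Dex against LPS and lost no mRNA call. The mRNA test did not take the RNA numbers to pair libraries. Of pairs of equal number 7 of 12 correlated over 0.1 (13 of 36 of unequal number), and without RNA libraries 4 it was 6 of 9 (5 of 18). The TE fit with the block did hold the RNA number as a term, beside the footprint number. Footprint counts depended on libraries 4. With the block they were 8, 6 and 9, and without libraries 4 they were 9, 7 and 9, for LPS against vehicle, LPS+Dex against LPS and LPS+Dex against vehicle. TE with LPS against vehicle had 1 gene, MMP19, in both of those fits. Leaving out 1 library at a time gave 1 to 4 with LPS+Dex against LPS in footprints, where 1748 to 2370 of all genes passed. The cause of these differences was not tested. Without RNA libraries 4 the mRNA calls of MMP9 (both comparisons), MMP14 with LPS, TIMP2 with LPS+Dex against LPS and TIMP1 with LPS+Dex against vehicle (adjusted p = 0.097) were lost.

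Signs turned for small or uncertain changes, none of which were called with all libraries except MMP9 mRNA with LPS. With library totals the turned mRNA values were MMP9 (-0.11) with LPS against vehicle, and MMP12 (-0.18) and MMP14 (-0.11) with LPS+Dex against vehicle. In footprints they were MMP9 (-0.23), MMP14 (-0.022) and MMP19 (-0.42) with LPS against vehicle, and MMP9 (-0.24) and TIMP1 (-0.0073) with LPS+Dex against vehicle. In TE they were MMP1 (-0.042), MMP7 (-0.089), MMP9 (-0.12), MMP12 (-0.019), MMP14 (-0.094) and TIMP1 (-0.10) with LPS against vehicle, and MMP1 (0.037) with LPS+Dex against LPS. Between LPS+Dex and LPS, TIMP1 mRNA turned with median-of-ratios size factors (-0.00052), with DESeq2 (-0.00071) and without RNA libraries 4 (-0.085). MMP14 footprints turned there with the same size factors (-0.00084), DESeq2 (-0.00052), the block (-0.030) and without libraries 4 (-0.062). MMP19 footprints with LPS turned with the block (-0.053) and without libraries 4 (-0.14). Leaving out libraries 4 also turned MMP9 footprints with LPS+Dex against vehicle (-0.058) and TE of MMP7 (-0.045), MMP12 (-0.035) and TIMP1 (-0.0071) with LPS and of MMP1 (0.044) with LPS+Dex against LPS.

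Leaving out single libraries turned further signs, within the ranges given here. In mRNA these were MMP14 (-0.018 to 0.20) and MMP12 (-0.077 to 0.13) with LPS+Dex against vehicle and TIMP1 (-0.032 to 0.12) with LPS+Dex against LPS. In footprints with LPS against vehicle they were MMP19 (-1.14 to 1.14), MMP7 (-1.23 to 2.74), MMP9 (-0.15 to 0.54), MMP14 (-0.062 to 0.87) and TIMP1 (-0.10 to 0.95). With LPS+Dex against vehicle they were TIMP2 (-0.66 to 0.027), MMP7 (-0.29 to 3.35), MMP9 (-0.36 to 0.50), MMP14 (-0.13 to 0.88) and TIMP1 (-0.23 to 0.86). With LPS+Dex against LPS they were MMP14 (-0.60 to 0.54), MMP9 (-0.59 to 0.34), TIMP1 (-0.76 to 0.53), MMP7 (-1.20 to 2.76), MMP19 (-0.070 to 2.48) and TIMP2 (-0.29 to 0.60). In TE with LPS+Dex against LPS they were MMP1 (-0.10 to 0.12), MMP7 (-2.14 to 1.69), MMP10 (-0.39 to 0.23), MMP19 (-1.58 to 0.87), TIMP1 (-0.74 to 0.47), TIMP2 (-0.53 to 0.30), MMP9 (-0.34 to 0.53), MMP14 (-0.33 to 0.74) and TIMP3 (-0.048 to 0.56). In TE with LPS against vehicle they were MMP7 (-1.86 to 2.03), TIMP3 (-0.43 to 0.24), MMP9 (-0.25 to 0.40), MMP14 (-0.35 to 0.53), TIMP1 (-0.43 to 0.57) and TIMP2 (-0.084 to 0.51).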
